A study of Mus musculus with 32 samples.

Results

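The 33 genes described here encode the endoplasmic reticulum (ER) unfolded protein response and the amino-acid stress response, and were taken by symbol from the 31053 genes of the deposited single-cell count tables, where all 33 were found. The rule applies no measured value, but the list was drawn up with earlier results of these data known. They comprised 12 ER chaperones and folding enzymes (*Hspa5*, *Hsp90b1*, *Calr*, *Canx*, *Pdia3*, *Pdia4*, *Pdia6*, *Dnajb9*, *Dnajb11*, *Dnajc3*, *Sdf2l1*, *Hyou1*), 3 ER-resident or secreted proteins (*Manf*, *Creld2*, *Nucb2*) and 4 components of ER-associated degradation, or ERAD (*Herpud1*, *Sel1l*, *Syvn1*, *Edem1*). A further 4 encode sensors and their transcription factors (*Atf6*, *Ern1*, *Eif2ak3*, *Xbp1*), and 10 belong to the arm driven by the transcription factor ATF4 (*Atf3*, *Atf4*, *Atf5*, *Ddit3*, *Ddit4*, *Trib3*, *Chac1*, *Asns*, *Sesn2*, *Ppp1r15a*).

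The cells were bone marrow stromal cells from Diversity Outbred (DO) mice, a genetically mixed population, which had been cultured under osteogenic conditions and then released from the mineralizing cultures with EDTA, collagenase and trypsin. Cells of 4 to 5 mice were combined into each of 16 pools, 77 mice in all, and the library of each pool was sequenced on 2 runs, which gave the 32 samples. All pools shared the same culture conditions and no treatment or engineered allele separated them, so the comparisons below were made between cell classes within pools. A pool was the replicate throughout, and its mice, which differ in genotype, were not separated here.

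Proteins that enter the secretory pathway fold in the ER with the help of chaperones such as BiP (*Hspa5*), and misfolded proteins are returned to the cytosol for degradation by ERAD. When unfolded proteins accumulate, ATF6, IRE1 (*Ern1*) and PERK (*Eif2ak3*) are activated: ATF6 and spliced XBP1 raise chaperones and ERAD components, while PERK slows translation and favours the synthesis of ATF4. ATF4 is also raised when amino acids are scarce, and it increases genes of amino acid supply such as asparagine synthetase (*Asns*) and the regulators CHOP (*Ddit3*) and TRIB3. Osteoblasts secrete large amounts of type I collagen and plasma cells large amounts of antibody, and both depend on this machinery.

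From 107853 barcodes of the first run, 83906 cells remained after filtering and removal of predicted doublets, and 52659 of them passed a gate on marker genes. The gate gave late mesenchymal progenitor-like (LMP-like), osteoblast progenitor-like (OBP-like), osteoblast-like (OB1-like and OB2-like), osteocyte-like (Ocy-like), marrow adipogenic lineage progenitor-like (MALP-like), macrophage-like and B-lineage-like cells, each seen in 8 to 16 pools with at least 20 cells. None of the 33 genes was a marker, 37.2% of kept cells stayed outside every class, and 14% of kept cells lay near the edge of the gate. The OB2-like (22.3%) and OB1-like (19.3%) classes had the highest such shares of the 8 classes, and macrophage-like cells had 4.92%. Levels in counts-per-million (CPM) were computed from unique molecular identifiers (UMIs), and *Col1a1* stood at 29866 CPM in OBP-like, 44577 in OB1-like, 1381 in macrophage-like and 5647 CPM in B-lineage-like cells, while *Ptprc*, the leukocyte antigen CD45, stood at 1.6 to 3.13 CPM in the mesenchymal classes and 211.8 in macrophage-like cells. The leading genes of the OB2-like class included *Ankrd37*, *Egln3* and *Bnip3*, genes known to respond to low oxygen. Of these, *Ankrd37* and *Bnip3* were markers of its gate and so high by selection. The OB1-like class was led by *Mepe*, *Bglap2* and *Bglap*, all markers of its gate. Its leading genes also included *Sost*, a marker of the Ocy-like class. Median depth per cell ran from 4483 UMIs in macrophage-like to 20114 in OBP-like cells. The 107853 barcodes included 1521 sequences that occurred in 2 or more pools, and these were treated as separate cells.

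Known response elements were looked for in the promoters, since these elements separate the regulators of the branches. The 250 bases before the start of each gene were searched on both strands in the RefSeq promoter table (GRCm38.p6), which held 30 of the 33 members. The ER stress response element (ERSE), CCAAT and CCACG with 9 free bases between them, is bound by NF-Y with ATF6 or XBP1 and was found in 8 of these 30, against 0.113% of all 32851 promoters. The 8 were the chaperones *Hspa5*, *Hsp90b1*, *Calr*, *Canx*, *Pdia6* and *Dnajc3* together with *Creld2* and *Syvn1*, and none belonged to the ATF4 arm. ERSE-II, which is ATTGG and CCACG with 1 free base between them and so shares the letters CCACG with the ERSE, was found in *Herpud1* and in 0.0304% of all promoters. The C/EBP-ATF composite letters TGATGNAA were found in *Asns*, *Atf3*, *Chac1* and *Herpud1*, against 3.45% of all promoters, so *Herpud1* held letters of both kinds. TGACGTGG, the core of the XBP1-type element, was found in no member and in 0.563% of promoters. These are matches of letters and not shown sites of binding. The members were listed because they belong to these responses. Their shares beside those of all promoters are therefore descriptions and no test.

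The windows below show the ERSE in members whose levels are described below, on the strand of the gene and with the matched letters in capitals. They lie at chr2:34772005-34772063 (+) for *Hspa5*, chr14:118937807-118937865 (+) for *Dnajc3*, chr15:88819500-88819558 (+) for *Creld2* and chr19:6046512-6046570 (+) for *Syvn1*. In *Creld2* the element reads on the opposite strand, and in *Hspa5* it ends 47 bases before the RefSeq start of the promoter table, which lies inside the longer gene span of the GENCODE annotation given below for *Hspa5*.
Hspa5: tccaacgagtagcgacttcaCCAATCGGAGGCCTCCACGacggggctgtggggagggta
Dnajc3: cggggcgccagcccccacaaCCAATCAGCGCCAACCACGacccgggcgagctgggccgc
Creld2: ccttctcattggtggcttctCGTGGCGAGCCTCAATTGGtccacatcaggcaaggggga
Syvn1: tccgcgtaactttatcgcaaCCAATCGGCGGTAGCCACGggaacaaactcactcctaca

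The composite letters of the ATF4 arm are shown for *Asns* (chr6:7693210-7693252, -), *Atf3* (chr1:191183416-191183463, -) and *Chac1* (chr2:119351029-119351076, +), 3 members of the arm whose levels are set beside those of the chaperones. For *Herpud1* the ERSE-II lies at chr8:94386357-94386407 (+) and the composite letters at chr8:94386297-94386344 (+). The composite match read on the opposite strand in *Atf3*, *Chac1* and *Herpud1*, and the ERSE-II match of *Herpud1* on the strand of the gene.
Asns: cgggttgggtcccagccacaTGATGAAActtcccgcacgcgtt
Atf3: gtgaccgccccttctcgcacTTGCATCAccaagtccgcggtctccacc
Chac1: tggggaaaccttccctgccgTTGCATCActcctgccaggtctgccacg
Herpud1 (composite): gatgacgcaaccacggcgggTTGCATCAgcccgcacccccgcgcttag
Herpud1 (ERSE-II): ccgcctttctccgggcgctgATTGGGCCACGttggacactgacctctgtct

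Levels are given as CPM, the UMIs of a gene scaled to the total UMIs of the summed cells of a class in a pool, with the mean ± SD over pools. B-lineage-like cells had the highest mean of the 8 classes for 20 of the 33 members, OB2-like and Ocy-like cells for 4 each, OBP-like and macrophage-like cells for 2 each and LMP-like cells for 1. Of the 11485 genes with a mean of at least 5 CPM in a class, B-lineage-like cells were highest for 4.18%, OB2-like for 5.89%, Ocy-like for 5.58%, OBP-like for 6.7%, macrophage-like for 26.9% and LMP-like cells for 11.4%. MALP-like and OB1-like cells were highest for 37.7% and 1.66% of these genes, and for no member. Within the mesenchymal classes the branches did not share one order. *Manf* and *Pdia6* were highest in OBP-like cells, *Ddit3*, *Trib3* and *Chac1* in OB2-like cells, and *Atf3*, *Dnajb9* and *Ppp1r15a* in Ocy-like cells. These orders are descriptions of means, and neighbouring classes often overlapped across pools.

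**Figure D1:**
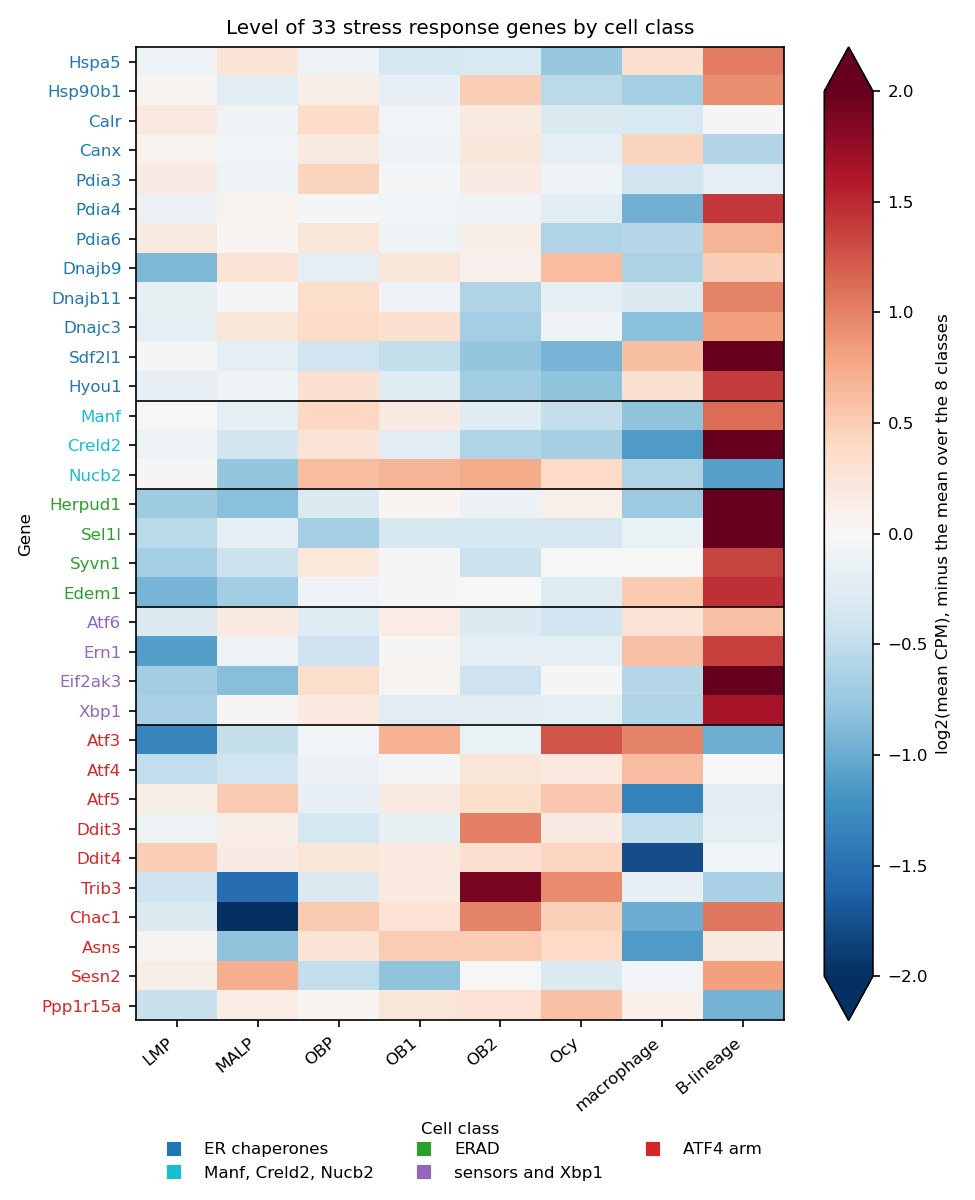
Heat map of the 33 members (rows, grouped by branch) in 8 cell classes (columns, named without the suffix "-like"), showing log2 of the mean CPM minus the mean of that value over the 8 classes. The B-lineage column is the highest for 20 of 33 rows (4.18% of all genes), and in the ATF4 arm OB2 and Ocy stand above LMP for *Trib3*, *Ddit3* and *Atf3*.

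BiP, the main ER chaperone (*Hspa5*, chr2:34771970-34777547), ranged from 417.3 CPM in pool 2 over a median of 872.4 to 1728 CPM in pool 5 in LMP-like cells. In Ocy-like cells the lowest, median and highest *Hspa5* values were 389.2, 518.8 and 1291 CPM, and the mean there (599.7 ± 244.9) was the lowest of the 8 classes. The pools of both classes overlapped widely. *Trib3* (chr2:152337422-152344032), a pseudokinase induced by ATF4 and CHOP, was at 8.26 ± 5 CPM in MALP-like, 17.8 ± 9.76 in LMP-like, 27.4 ± 20.3 in OB1-like and 89 ± 29.4 CPM in the OB2-like class (16, 16, 15 and 14 pools). Its level in OB1-like cells spanned 2.3 to 67.3 CPM across pools, a 29.3-fold range, and 6.56 to 67.3 CPM without pools 1 and 2, a 10.3-fold range. *Atf6* (chr1:170704674-170867771), the membrane-bound sensor, spanned 37.2 to 52.2 CPM across the same 15 OB1-like pools.

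The first comparison asked how the members differ between osteoblast progenitors and the LMP-like cells. In OBP-like against LMP-like cells (16 pools), 28 of the 33 members were higher, 1 was lower and 4 were not called, with a median log2 fold change of 0.70 against -0.00 over all genes tested. Calls here and below are from edgeR's quasi-likelihood test with pool as a block and a Benjamini-Hochberg adjusted p of at most 0.05 over all genes. In this comparison 76.9% of all genes were called, 38% as higher and 38.8% as lower, so a single call says little and the sizes are given. The 3 ATF4-arm members *Atf5*, *Ddit3* and *Ddit4* and the chaperone *Sdf2l1* were not called, and the lower member was *Sesn2*, a stress-induced inhibitor of mTORC1 (log2 fold change -0.30).

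Median log2 fold changes were 1.09 over the 4 sensors and 1.00 over the 4 ERAD members, beside 0.48 over the 12 chaperones and 0.46 over the ATF4 arm. *Eif2ak3*, which encodes PERK, had 7.74, 9.8 and 13.9 CPM as its lowest, median and highest LMP-like values and 16.1, 19.8 and 25.6 CPM in OBP-like cells. No OBP-like pool overlapped the LMP-like pools, and the log2 fold change was 1.37 (SE 0.0634, adjusted p = 7.91e-15). *Xbp1*, the factor spliced by IRE1, rose from 125.9 ± 23.5 to 226.2 ± 31.8 CPM without overlap (log2 fold change 1.19). The ubiquitin ligase gene *Syvn1* (1.22) and the mannosidase-like ERAD gene *Edem1* (1.20) were higher in 16 of 16 pools. Within the ATF4 arm, *Atf3* (1.64, SE 0.157) and the glutathione-degrading enzyme gene *Chac1* (1.23, SE 0.109) rose most, and *Atf4* (0.72), *Asns* (0.54) and *Ppp1r15a* (0.84) rose as well, while *Ddit3* was at 0.13 (adjusted p = 0.109), and at 0.34 (adjusted p = 2.92e-05) with classes taken from clusters. Of 8 immediate early genes 5 were higher and 1 lower (3 and 3 on library totals), and their part in the difference of *Atf3* was not tested. The most abundant chaperone, *Hspa5*, was at 947.8 ± 326.6 CPM in OBP-like and 943.8 ± 330.3 CPM in LMP-like cells and was higher in 9 of 16 pools by CPM. Its log2 fold change of 0.35 (adjusted p = 7.38e-06) fell to 0.02 (adjusted p = 0.721) when library totals replaced the TMM scaling, and was not called without the pool as a replicate block (adjusted p = 0.0997). *Pdia3* (0.62) and *Calr* (0.52), also abundant, were higher in 15 of 16 pools and stayed called on library totals (0.29 and 0.19), whereas *Hsp90b1* (0.44), *Pdia4* (0.43) and *Pdia6* (0.39) were not called there (0.11, 0.10 and 0.06).

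The scaling bears on every comparison with the osteoblast classes, where *Col1a1* alone held 27912 to 49562 CPM. TMM scales to the bulk of genes, whereas library totals moved the median of all genes to -0.33 in OBP-like and -0.52 in OB1-like against LMP-like cells. On library totals the OBP-like comparison gave 21 members higher and 6 lower, beside 20.2% and 64.1% of all genes. *Ddit3* (log2 fold change 0.13 to -0.19), *Atf5* (0.04 to -0.29), *Ddit4* (0.07 to -0.26) and *Sel1l* (0.19 to -0.14) turned to lower. *Sdf2l1* (-0.11 to -0.44) was then called lower as well. The ATF4 arm had 5 members higher and 4 lower, beside 6 and 1 on the TMM scale. *Eif2ak3* (1.04), *Xbp1* (0.86), *Atf3* (1.31) and *Chac1* (0.91) stayed higher on both scales.

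In OB1-like against LMP-like cells (15 pools), 26 members were higher, 1 was lower and 6 were not called, where 73.8% of all genes were called, 35% higher and 38.9% lower. The 6 not called included the chaperones *Hspa5*, *Hsp90b1*, *Calr* and *Pdia6*, with log2 fold changes of 0.16, 0.16, 0.19 and 0.13. *Atf3*, a stress-induced transcription factor, ran from 37.3 over a median of 60.7 to 114.4 CPM in LMP-like and from 135.5 over 246 to 415.9 CPM in OB1-like cells. The classes did not overlap, and the log2 fold change was 2.50 (SE 0.1, adjusted p = 8.49e-15). Immediate early genes moved in the same comparison, with 6 of 8 higher and 1 lower (4 and 3 on library totals) and *Fosb* at 1.44 and *Fos* at 1.25, and their part in the difference of *Atf3* was not tested. The BiP co-chaperone gene *Dnajb9* (1.63), *Ern1* (1.56), *Edem1* (1.34), *Herpud1* (1.25) and *Eif2ak3* (1.20) followed in size, all higher in at least 14 of 15 pools. *Atf4* (0.93) and *Asns* (0.94) were higher in 15 of 15. On library totals 15 members were higher and 9 lower (16% and 68.1% of all genes), *Hspa5* turned to lower (-0.33) and *Ddit3* went from 0.38 to -0.10. Of the 12 chaperones 2 were then higher and 7 lower, beside 7 and 0 on the TMM scale. *Hsp90b1* (-0.32), *Calr* (-0.29) and *Pdia6* (-0.35) were called lower. *Canx* (0.30 to -0.18) and *Pdia3* (0.28 to -0.20) went from called higher to called lower. The call of *Ddit3* (adjusted p = 0.0113) was also lost without the pool as a replicate block (0.37, adjusted p = 0.177).

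Genes of the same machinery outside the member list were compared as fixed lists, beside the same background. Of 18 other ER folding and translocation genes, 16 were higher in OBP-like and 18 in OB1-like than in LMP-like cells, with median log2 fold changes of 1.02 and 0.89. The signal sequence receptor genes *Ssr1* and *Ssr2* rose by 1.55 and 1.54 in OBP-like cells. Of 15 amino acid enzymes and transporters, 12 were higher in OBP-like and 14 in OB1-like cells, led by *Pycr1*, an enzyme of proline synthesis (2.19 and 1.97). On library totals the amino acid list gave 7 higher and 3 lower in OBP-like and 7 higher and 4 lower in OB1-like cells, and the ER folding list 15 higher and 0 lower and 13 higher and 1 lower. The ER stress factor of collagen-secreting cells *Creb3l1* was 2.64 higher and *Nupr1*, a stress-induced chromatin protein, 2.20 higher in OBP-like cells on the log2 scale, in a list of 15 other sensors and factors of which 10 were higher and 3 lower (median 0.20), and 3 higher and 8 lower on library totals (median -0.12). Of the 6 cytosolic heat shock genes, 1 was higher and 3 were lower in OBP-like cells, and 0 were higher and 4 lower in OB1-like cells.

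**Figure D2:**
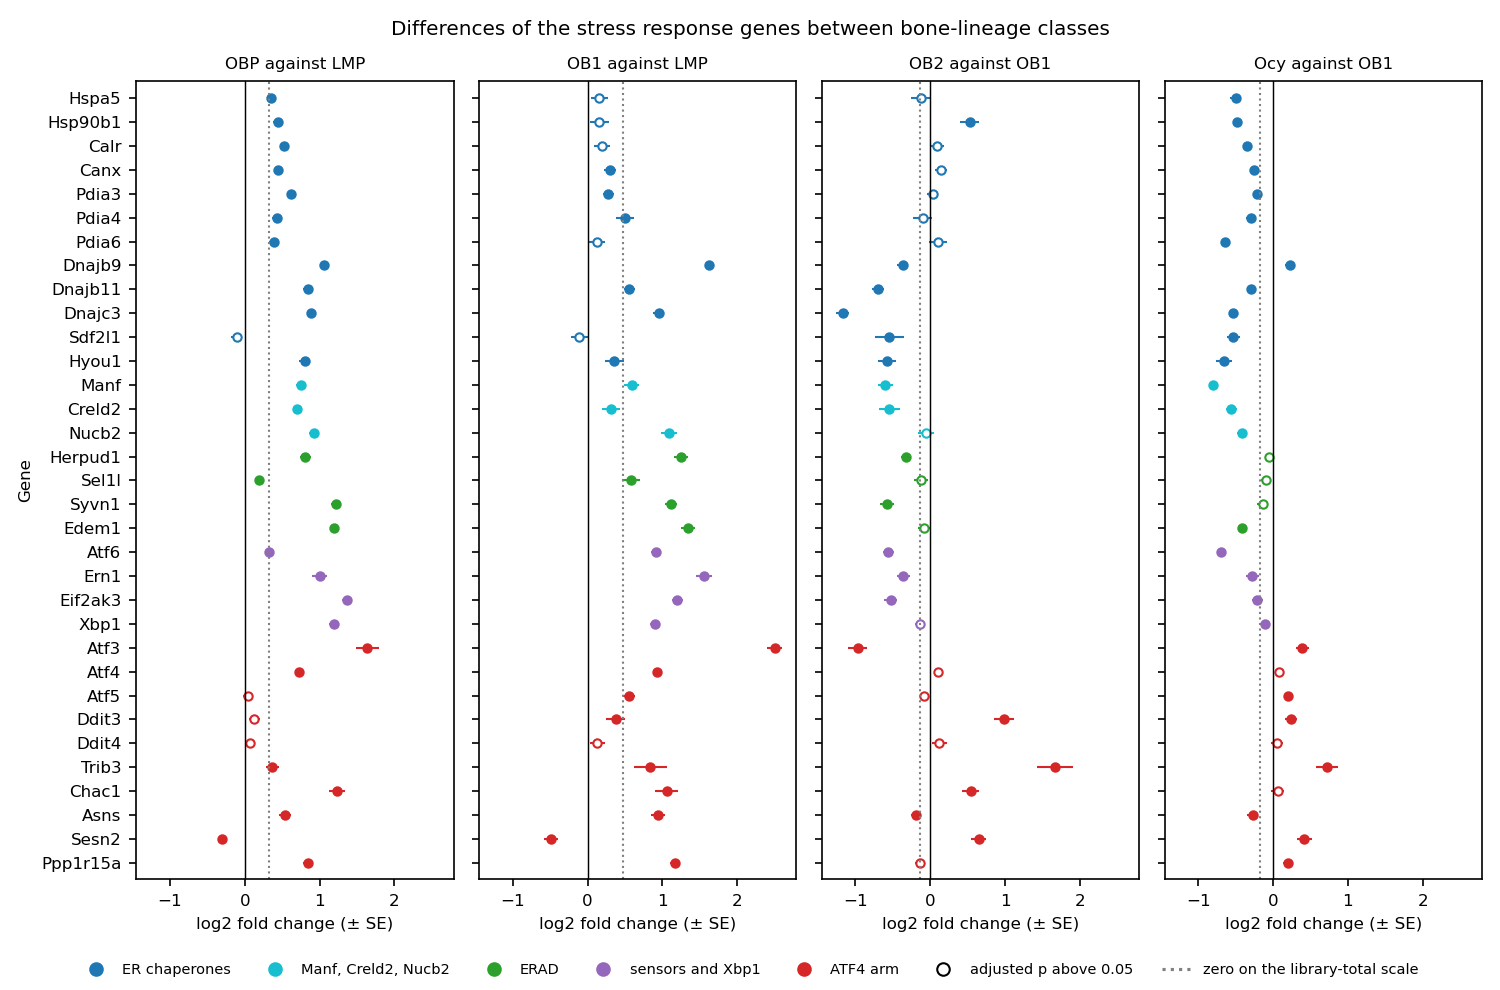
Log2 fold change ± SE of the 33 members in 4 class comparisons within pools, with open circles for an adjusted p above 0.05 and a dotted line where zero lies on the scale of library totals. Nearly all points lie right of zero for OBP and OB1 against LMP, while for Ocy against OB1 the chaperones other than *Dnajb9* lie left of zero and most of the ATF4 arm lies right of it.

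The OB2-like class was compared with the OB1-like class to see which members differ between the 2 osteoblast classes. In OB2-like against OB1-like cells (13 pools), 5 members were higher, 14 were lower and 14 were not called, with 60.3% of all genes called, 30.3% higher and 30% lower. The 5 higher members were *Trib3*, *Ddit3*, *Sesn2* and *Chac1* of the ATF4 arm and the chaperone *Hsp90b1*. Over these 13 pools *Trib3* ran from 53.8 CPM in pool 4 over a median of 92.8 to 128.2 CPM in pool 11 in OB2-like cells, against 6.56, 26.4 and 67.3 CPM in OB1-like cells. It was higher in OB2-like cells in 13 of 13 pools although the ranges overlapped, with a log2 fold change of 1.67 (SE 0.237, adjusted p = 7.76e-06). *Ddit3*, which encodes the pro-apoptotic factor CHOP, rose by 0.98 (SE 0.133) and was higher in 13 of 13 pools. *Sesn2* rose by 0.65 and *Chac1* by 0.54. Library totals moved the median of all genes to 0.14 and gave 8 members higher and 12 lower (40.5% and 20.6% of all genes), with *Trib3* at 1.81 and *Ddit3* at 1.12.

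Of the folding genes and sensors, 5 of 12 chaperones, 2 of 3 ER-resident or secreted members and 3 of 4 sensors were lower in OB2-like cells. *Dnajc3*, the PERK inhibitor P58IPK, had 71.2, 96.2 and 132.1 CPM as its lowest, median and highest OB2-like values and 155, 209.4 and 292.3 CPM in OB1-like cells. No pools overlapped, and *Dnajc3* fell by 1.17 on the log2 scale (SE 0.0884, adjusted p = 7.15e-09). *Dnajb11* (-0.70), the secreted ER protein *Manf* (-0.60), *Eif2ak3* (-0.53) and *Atf6* (-0.56) were lower too. *Atf3* fell by 0.97, so members of the ATF4 arm moved in both directions. Of 8 immediate early genes 1 was higher and 5 were lower (2 and 2 on library totals), and their part in the difference of *Atf3* was not tested. *Asns* was at -0.19 (adjusted p = 0.0273), a call lost on library totals (-0.05) and without the replicate block (-0.19, adjusted p = 0.0686). The call was also lost with the stricter gate (-0.18, adjusted p = 0.0828) and with cells thinned to 4000 UMIs (-0.13, adjusted p = 0.243). *Atf4* transcript itself was higher by CPM in 13 of 13 pools and at 0.10 on the TMM scale (adjusted p = 0.0649), and it was called with DESeq2 (0.10, adjusted p = 0.0221), with the stricter gate (0.14, adjusted p = 0.0273) and on library totals (0.24, adjusted p = 0.000254). *Hspa5* was at -0.13 (adjusted p = 0.415).

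The markers of the OB2-like class are themselves largely hypoxia-type genes, and 7 of 7 genes of the HIF list were higher in OB2-like cells, led by *Adm* (3.07), *Egln3* (1.95) and *Slc2a1* (1.62). Among ER folding genes 1 of 18 was higher and 10 were lower, and the higher one was *Ero1l*, an ER oxidase known to respond to low oxygen (1.51). Of the amino acid genes 5 of 15 were higher and 4 lower, with the transporters *Slc1a4* at 1.03 and *Slc3a2* at 0.60 and *Pycr1* at -0.97. Of the 6 cytosolic heat shock genes 3 were higher and 1 was lower (median 0.27), with *Hspa1b* at 1.63 and *Hspa1a* at 1.20. Whether these genes have a part in the differences of *Trib3* and *Ddit3* was not tested.

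In Ocy-like against OB1-like cells (15 pools), 7 members were higher, 20 were lower and 6 were not called, with 46.4% of all genes called, 22% higher and 24.4% lower. The branches divided: 11 of 12 chaperones and 3 of 3 ER-resident or secreted members were lower, whereas 6 of 10 ATF4-arm members were higher and 1 was lower. *Manf*, an ER stress-inducible secreted protein, ran from 138.3 over 238.9 to 450.9 CPM in Ocy-like and from 232.5 over 395 to 566.7 CPM in OB1-like cells. The ranges overlapped, yet *Manf* was lower in the Ocy-like cells of 15 of 15 pools and fell by 0.80 on the log2 scale (SE 0.0527, adjusted p = 1.25e-11). *Pdia6* (-0.64) and *Atf6* (-0.69) were lower in 15 of 15 pools, and *Hyou1* (-0.66), *Creld2* (-0.56) and *Hspa5* (-0.50) in 13, 14 and 11. *Dnajb9*, the exception among the chaperones, rose by 0.22.

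*Trib3* was higher in Ocy-like than in OB1-like cells in 14 of 15 pools (47.8 ± 27.5 against 27.4 ± 20.3 CPM, log2 fold change 0.72, adjusted p = 0.000205). *Sesn2* (0.42), *Atf3* (0.39), *Ddit3* (0.24), *Atf5* (0.20) and *Ppp1r15a* (0.20) were the other members called higher in the arm with the pool as a block, while *Asns* fell by 0.27 and *Atf4* was at 0.08 (adjusted p = 0.113). Without the pool as a replicate block, 2914 genes in place of 4724 were called, 1 member was higher and 12 were lower. *Sesn2* (0.46, adjusted p = 0.00662) was then the only member called higher, while *Trib3* (adjusted p = 0.168), *Atf3* (0.0757), *Ddit3* (0.548), *Atf5* (0.364), *Ppp1r15a* (0.111) and *Dnajb9* (0.17) lost their calls, as did 8 of the lower members, which were *Calr* (0.0719), *Canx* (0.0652), *Pdia3* (0.0702), *Pdia4* (0.0603), *Sdf2l1* (0.147), *Ern1* (0.0872), *Xbp1* (0.367) and *Asns* (0.188). The chaperones called lower were then 6 of 12. The fold changes themselves moved little in the arm, with *Trib3* at 0.70, *Atf3* at 0.35, *Ddit3* at 0.19, *Atf5* at 0.20 and *Ppp1r15a* at 0.19. The call of *Ddit3* was also lost without pools 1 and 2 (0.19, adjusted p = 0.0541) and with cells thinned to 4000 UMIs (0.10, adjusted p = 0.452). On library totals, which moved the median of all genes to 0.17, 10 members were higher and 13 lower (46% and 12.9% of all genes), with 8 of 12 chaperones still lower and 9 of 10 ATF4-arm members higher. *Atf4* was among these (0.25, adjusted p = 2.45e-05), while *Asns* was no longer called (-0.11, adjusted p = 0.192). Of the amino acid genes 0 of 15 were higher and 9 were lower, among them *Psph* (-0.82) and *Phgdh* (-0.72) of serine synthesis.

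In MALP-like against LMP-like cells (16 pools), 10 members were higher, 18 were lower and 5 were not called, with 72.9% of all genes called, 36.3% higher and 36.6% lower. *Chac1* ran from 1.95 over 5.82 to 13.1 CPM in MALP-like and from 5.54 over 18.1 to 47.3 CPM in LMP-like cells. It was lower in 16 of 16 pools and fell by 1.90 on the log2 scale (SE 0.163, adjusted p = 8.44e-10). *Trib3* fell by 1.22, *Asns* by 1.12 and *Nucb2*, a calcium-binding protein, by 1.04, while *Dnajb9* (0.93), *Ern1* (0.75) and *Atf3* (0.65) rose. Of the immediate early genes 7 of 8 were higher as well (median 0.47), and their part in the difference of *Atf3* was not tested. *Dnajb9* did not overlap between the classes (163.5 ± 27.7 against 72.5 ± 13.9 CPM). Amino acid supply genes were lower with these members, 11 of 15 enzymes and transporters and 11 of 12 tRNA synthetases, with *Slc7a5* at -1.88, *Pycr1* at -1.60 and *Gars* at -1.32. Of the HIF list 6 of 7 were lower.

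Small differences in this comparison depended on the scale and on other settings. Library totals moved the median of all genes to 0.26 and gave 16 members higher and 11 lower (57.3% and 20.9% of all genes), and *Atf4* went from -0.16 (adjusted p = 0.0113) to 0.10 (adjusted p = 0.105). *Hspa5* was at 0.18 (adjusted p = 0.0302) and at 0.43 (adjusted p = 1.38e-06) on library totals, and it was higher by CPM in 15 of 16 pools. On the TMM scale its call was lost without pools 1 and 2 (0.14, adjusted p = 0.109), with the counts of the second run (0.15, adjusted p = 0.063) and with the stricter gate (0.17, adjusted p = 0.0545). Without the replicate block *Hspa5* (adjusted p = 0.515) and *Atf4* (adjusted p = 0.0741) were not called. *Ddit3* was at 0.08 (adjusted p = 0.53), and at 0.34 on library totals. *Chac1* (-1.64), *Trib3* (-0.96) and *Asns* (-0.87) stayed lower on library totals.

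Macrophage-like cells were the most abundant class outside the mesenchymal ones. In macrophage-like against LMP-like cells (16 pools), 16 members were higher, 12 were lower and 5 were not called, where 85.4% of all genes were called, 41.3% higher and 44.1% lower. *Atf4* ran from 308.8 over 451.8 to 549.2 CPM in macrophage-like and from 150.5 over 211.2 to 263.5 CPM in LMP-like cells, with no overlap and a log2 fold change of 1.25 (SE 0.0691, adjusted p = 9.51e-14). Transcripts of the same arm split around it. *Atf3* rose by 2.54, while *Ddit4*, an mTORC1 inhibitor, fell by 2.16, *Atf5* by 1.34 and *Asns* by 1.06, the first 3 of these without overlap. *Ern1* (1.83), *Edem1* (1.59) and *Syvn1* (0.85) were higher in 16 of 16 pools.

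Library totals moved the median of all genes to -0.18 and gave 14 members higher and 14 lower, beside 36.4% and 49.4% of all genes. The amino acid genes also split in macrophage-like cells, with 10 of 15 lower and 4 higher, from *Slc1a4* at -3.30 and *Pycr1* at -3.07 to the cystine transporter *Slc7a11* (231.3 against 2.94 CPM). *Hspa5* was 0.61 higher, whereas *Hsp90b1* (-0.54), *Pdia4* (-0.78) and *Pdia6* (-0.59) were lower. *Ddit3* was not called (-0.16, adjusted p = 0.436), but without pools 1 and 2 it was at -0.42 (adjusted p = 0.00448), and with classes taken from clusters at 0.46 (adjusted p = 0.00679). With cells thinned to 4000 UMIs *Ddit3* was at -0.41 (adjusted p = 0.0284). The comparisons above share classes: LMP-like cells were the reference in 4 of them and OB1-like cells entered 3, so their values stand side by side and are not independent.

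B-lineage-like cells were compared with the macrophage-like cells of the same 8 pools. The class held 20 to 127 cells per pool, and its leading genes were immunoglobulin genes with *Jchain* and *Mzb1*, which antibody-secreting cells express. Among these leading genes, *Igkc*, *Ighm*, *Iglc2* and *Jchain* were markers of the gate. Of the 33 members, 27 were higher, 3 were lower and 3 were not called, with a median log2 fold change of 1.82, where 58.3% of all genes were called, 26.7% higher and 31.6% lower. At 2-fold or more, 26 members were higher against 12.9% of all genes. All 4 ERAD members and all 4 sensors were higher, and so were 11 of 12 chaperones, *Canx* being lower (-0.37). On library totals 4 of 4 ERAD members, 2 of 4 sensors and 8 of 12 chaperones were higher.

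*Creld2*, an ER stress-inducible disulfide isomerase, had 192.9 CPM as its lowest, 329.3 as its median and 586.9 as its highest B-lineage-like value, and 23 ± 4.24 CPM in the macrophage-like cells of these pools. There was no overlap, and the log2 fold change was 4.62 (SE 0.215, adjusted p = 8.84e-11), the largest of the 33. *Herpud1*, which assembles the ERAD complex, ran from 1019 over 1705 to 2301 CPM against 193.9 ± 29.3 CPM (3.93, SE 0.22). *Eif2ak3* (3.64), the ERAD adaptor gene *Sel1l* (3.33), the isomerase gene *Pdia4* (3.22) and *Xbp1* (2.88), which plasma cells need, did not overlap either. Among these 6 genes, ERSE-type letters were found in the promoters of *Creld2* and *Herpud1*.

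The ATF4 arm was less uniform in B-lineage-like cells. *Asns* rose by 2.11, *Ddit4* by 2.59 and *Ddit3* by 1.03 (not called on library totals, at 0.25, or with classes taken from clusters, at 0.22), and *Atf3* fell by 1.19. *Atf4* was lower by CPM in 8 of 8 pools (293.5 ± 53.8 against 482.8 ± 50.2) but at 0.07 on the TMM scale (adjusted p = 0.684), at 0.44 (adjusted p = 0.0395) with cells thinned to 4000 UMIs, and at -0.71 on library totals. *Chac1* ranged from 0 in pool 13 to 152.5 CPM in pool 6 and had a log2 fold change of 2.76 (SE 0.446). *Hspa5* was at 2064 ± 1164 against 1340 ± 192.7 CPM and higher in 4 of 8 pools by CPM, with 1.25 on the TMM scale and 0.48 (adjusted p = 0.0648) on library totals. *Igkc* alone held 17689 to 378662 CPM in these pools, and library totals moved the median of all genes to -0.85 and gave 21 members higher and 6 lower (8.72% and 63.8% of all genes). *Creld2* (3.85), *Herpud1* (3.16) and *Eif2ak3* (2.82) stayed higher. Other genes of the machinery were higher too, 17 of 17 tested ER folding genes and 11 of 11 ERAD genes, with *Txndc5* at 4.79, *Ssr4* at 3.29 and *Edem2* at 3.36. Among amino acid genes 10 of 12 tested were higher, with *Pycr1* at 4.77 and *Phgdh* at 4.31. *Col1a1* reached 20327 CPM in the B-lineage-like pools and was highest in pools 13 and 17, and the calls without these pools are given in the closing section.

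**Figure D3:**
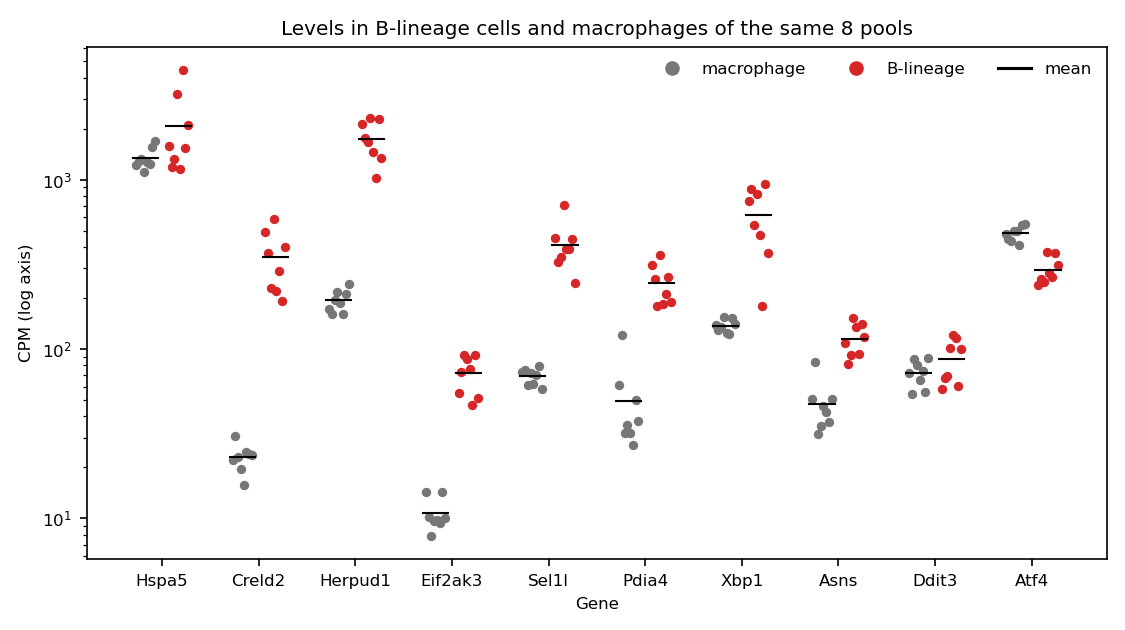
CPM (log axis) of 10 members in the macrophage-like and B-lineage-like cells of the 8 shared pools, 1 point per pool. *Creld2*, *Herpud1*, *Eif2ak3*, *Sel1l*, *Pdia4* and *Xbp1* do not overlap between the classes, while every B-lineage point of *Atf4* lies lower on this scale (0.07 after TMM scaling) and *Hspa5* and *Ddit3* overlap.

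Levels also differed between pools of the same class, and this spread was uneven over the branches. In LMP-like cells *Trib3* ran from 4.17 CPM in pool 2 over a median of 16.5 to 38.9 CPM in pool 5, and *Chac1* from 5.54 CPM in pool 2 to 47.3 CPM in pool 3. *Ddit3* ran from 30.6 CPM in pool 2 to 160 CPM in pool 8. In macrophage-like cells of the same pools *Trib3* stayed between 12.7 and 27.5 CPM and *Ddit3* between 46.5 and 91.3 CPM.

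Many of the lowest values came from the same pools, although not every member was low there. Pool 1 or 2 held the lowest value of 20 of the 33 members in LMP-like, 23 in OBP-like and 24 in OB1-like cells, and of 14 in Ocy-like, 12 in MALP-like and 6 in macrophage-like cells. Among all genes with a mean of at least 5 CPM in the class, these pools held the lowest value of 19%, 19.6%, 15.3%, 14.8%, 6.13% and 12.5%, in the same order of classes. For the ATF4 arm this was 8 of 10 members in LMP-like, 7 in each of OBP-like, OB1-like and Ocy-like, 3 in MALP-like and 0 in macrophage-like cells. All of these lowest values of the arm were in pool 2 and not in pool 1. In Ocy-like cells pool 1 held the highest value of 13.9% of all genes at that level and, with a smaller share, of 3 of the 33 members, all of the arm. These were *Atf3* (544.6 CPM), *Ddit4* (224 CPM) and *Ppp1r15a* (453.8 CPM). Pool 5 held the highest value of 16 members in LMP-like, 19 in OBP-like and 16 in MALP-like cells, and pool 13 of 16 in Ocy-like cells, where the same pool was highest for 4.22%, 6.14%, 3.53% and 5.18% of all genes with a mean of at least 5 CPM. Pool 13 had the lowest median depth of kept cells (2730 UMIs) and the largest share of cells outside every class (53.7%). Pools 1 and 2 also stood apart in their cells, with OB2-like cells at 0.0425% and 0.0165% of kept cells. In their LMP-like cells *Fos* was at 202.4 and 267.4 CPM, against 324.4 to 555.1 CPM in the other pools, and *Vegfa* at 134.8 and 147.2 CPM. Median depth of LMP-like cells was 8420 UMIs in pool 1 and 18880 in pool 2, against 8264 to 23527 UMIs in the other pools. The part of any of these in the low values was not tested, and mice, culture and library of a pool cannot be told apart.

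**Figure D4:**
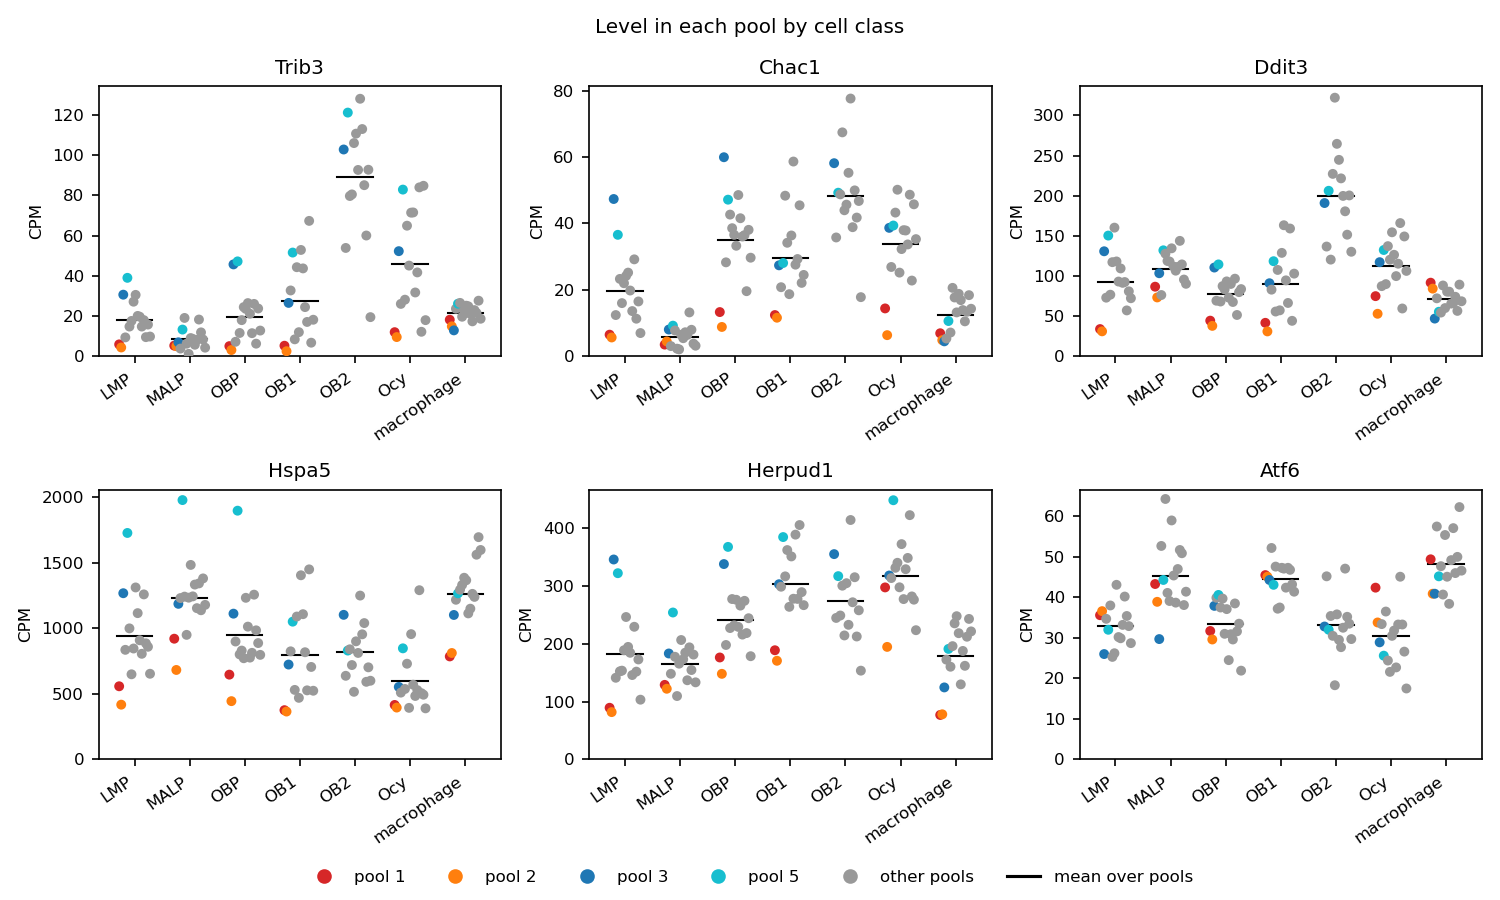
CPM of *Trib3*, *Chac1*, *Ddit3*, *Hspa5*, *Herpud1* and *Atf6* by class, 1 point per pool with a line at the mean, and pools 1, 2, 3 and 5 in colour. Pool 2 lies lowest in LMP-like cells for 5 of the 6 genes, whereas *Atf6* shows no such order.

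The spread between pools was put on one scale as the biological coefficient of variation (BCV) from edgeR within a class, ranked among all genes tested in that class. The median BCV of all genes was 0.177 in LMP-like, 0.196 in OB1-like and 0.167 in macrophage-like cells. *Chac1* (0.552) and *Trib3* (0.542) stood at the 98.9 and 98.8 percentile in LMP-like cells, and *Trib3* (0.73) at 99.6 in OB1-like cells. In macrophage-like cells *Chac1* stayed at 96.9, while *Trib3* stood at 59.2. Over all 33 members the median percentile was 72.5 in LMP-like, 80.4 in OB1-like and 41.3 in macrophage-like cells. The sensors varied least among the branches, with median percentiles of 31.4, 30.3 and 21, and *Atf6* stood at 1.12 in OB1-like cells. In the same order of classes the medians were 73, 86.2 and 68.7 for the ATF4 arm and 79, 81.5 and 37.2 for the chaperones. They were 62.3, 79.6 and 30 for ERAD and 88.6, 87.8 and 44.3 for the ER-resident or secreted members. The BCV is the spread left after the counting error that the model expects, with each gene's value drawn toward the trend over genes of similar level. Percentiles of members with few counts, such as *Ern1* and *Eif2ak3*, can depend on this and on the depth of a class. The size of this effect was not tested.

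**Figure D5:**
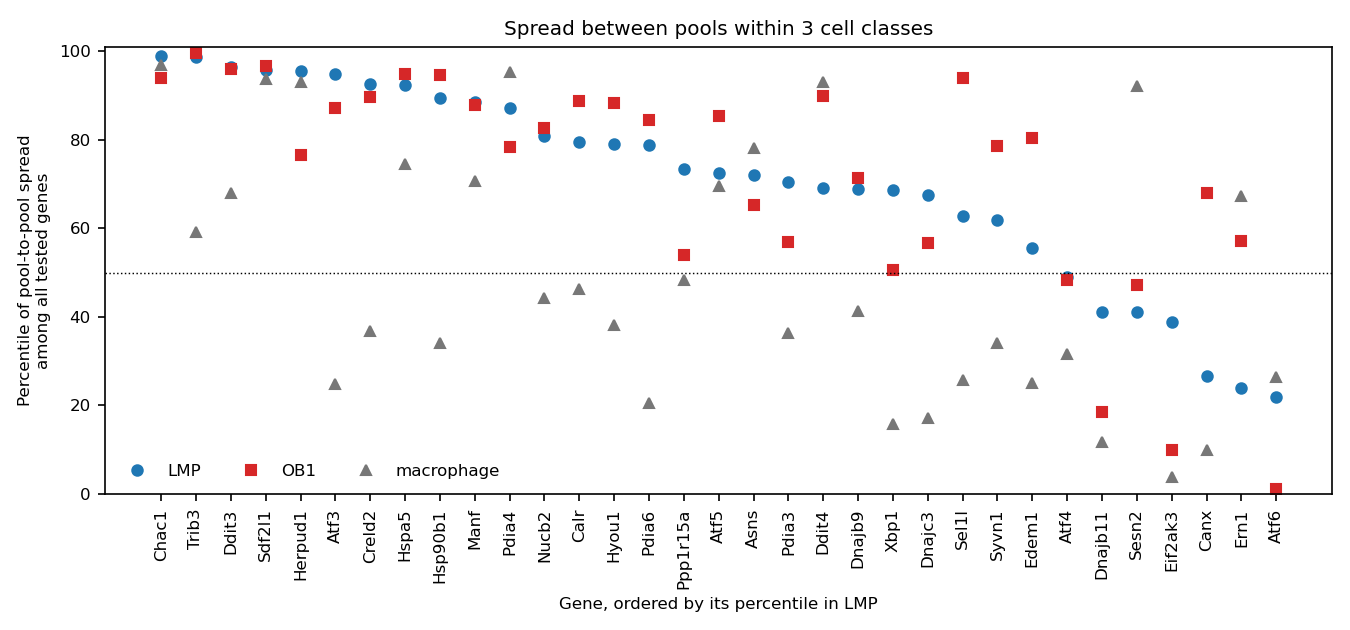
Percentile of each member's biological coefficient of variation between pools among all genes tested, in LMP-like, OB1-like and macrophage-like cells, with members ordered by their percentile in LMP-like cells. *Trib3* stands at 98.8, 99.6 and 59.2 in the 3 classes, and *Atf6* at 21.8, 1.12 and 26.3.

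Within pools, members of the ATF4 arm were also looked for in the same cells, after each cell had been thinned to 4000 UMIs and shallower cells left out. After thinning, *Trib3* was detected in 6.06% ± 3.28 (SD, n = 16 pools) of LMP-like, 10.3% ± 7.96 of OB1-like (15 pools), 27.3% ± 8.98 of OB2-like (14 pools) and 6.92% ± 1.27 of macrophage-like cells (16 pools). *Trib3* and *Ddit3* occurred together in 245 LMP-like cells, where their separate shares in each pool gave 133.5, and the median ratio over the 10 pools with at least 5 expected cells was 1.81. The ratio was above 1 in 10 of 10 pools, and in OB1-like cells it was 1.47 and above 1 in 5 of 5 pools. *Chac1* and *Ddit3* (1.47) and *Chac1* and *Asns* (1.48) were next within the arm in LMP-like cells. High ratios were not limited to the arm, since *Trib3* and *Sdf2l1* were at 1.87 (above 1 in 4 of 4 pools) and *Trib3* and *Creld2* at 1.59 (5 of 6 pools). Most pairs were near 1: the median over 12 pairs within the arm was 1.12 in LMP-like and 1.05 in OB1-like cells, and over pairs across branches it was 1.06 and 1.02. The chaperone gene *Sdf2l1* and the secreted member *Creld2* were at 1.81 in LMP-like cells, above 1 in 7 of 10 pools. Thinning to 2000 UMIs moved 25 of 93 ratios by more than 1 SD over pools, and *Trib3* and *Ddit3* in LMP-like cells were then at 1.86 in the 3 pools that could be used. Cells of a pool share a library and mice, so these ratios are descriptions and carry no test.

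The second sequencing run read the same droplets, with 98.2% of first-run barcodes found in both. By pool this share was 84.5% in pool 13 and 98.2% to 99.8% in the others. Over 3047 values of a member in a pool and class with at least 100 UMIs, the ratio of the second to the first run lay between 0.714 and 1.27 with a median of 1. This compares repeated sequencing of the same libraries and adds no replicate.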

How the data were processed

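Single-cell 3′ RNA was measured in 16 pools, and each library was sequenced on 2 runs. The authors ran Cell Ranger 5.0.0 against mm10 and deposited filtered matrices of raw UMI counts per gene and barcode. The first run, with 53990642 to 100777353 UMIs per pool, gave the main results. After the study's limits of 400 and 6200, which its methods state for reads and which were applied here to detected genes, barcodes with 400 to 6200 genes, at most 10% mitochondrial, 20% *Rpl* and 15% *Rps* counts were kept (88909 of 107853). The 5003 highest scoring simulated-doublet neighbours (5.63%) were removed.

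Cells were assigned to a class where the mean z score of its markers was at least 0.75, exceeded the next class by 0.25 and rested on at least 3 detected markers. No annotation of cells was used here, so classes can differ from the study's. The gate rule was set after the data were examined. Members, lists and markers were chosen with earlier results of these data known.

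Counts were summed per pool and class with at least 20 cells. They were tested with edgeR 4.0.16 (R 4.3.3, filterByExpr, TMM, quasi-likelihood, pool as block, tests two-sided) and tested on simulated data first. Of 200 genes changed by 1 log2 unit, 99.5% to 100% were recovered in 6 comparisons and 81.5% in B-lineage-like against macrophage-like cells. False calls numbered 2 to 17 per comparison. These 200 stood among 7205 to 11903 genes, whereas 46.4% to 85.4% of genes were called in the measured data. Recovery with that many genes differing was not tested. The simulated counts held no differences between pools, and rises and falls were equal in number. Neither the pool block nor the scaling under a shift in composition was therefore tried. Each SE follows from the fold change and its F statistic (the size on the log2 scale over the root of F). Classes of a pool come from the same mice and library. Their deviations from the class means correlated at 0.198 to 0.589 (median over pools, by comparison), with single pools down to -0.008. The counts say nothing of UMIs that came from free RNA, which was not removed.

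In each comparison *Hspa5*, *Atf4*, *Asns*, *Ddit3* and the 6 other called members with the largest change were named, with at most 3 genes per other list. A few further members were named after their values were seen. Alternatives covered scaling, filters, gate, doublets, clusters, run, depth, tool and pools. The monocyte gate was led by granzyme genes and was not used. CPM values cover counting and pool error together, and depth limits low genes most. Tools were scanpy 1.11.5, scipy 1.17.1, numpy 2.4.6 and pandas 2.3.3. Gene coordinates follow GENCODE M21 on GRCm38.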

Additional observations from a re-analysis of the deposited data

Results flagged for a closer look

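Among 10 sets of B-lineage-like values examined for a value far from the others, *Sel1l* stood out in 1. *Sel1l* was at 709 CPM in pool 10, while the 7 other pools lay between 245.7 and 454.4 CPM, and the gap exceeded Dixon's critical value of 0.526 for 8 values. Chance alone gives such a value in about 1 of 20 sets.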

How the results depend on the processing

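Of 243 counts of called genes or members recomputed under an alternative, 226 stayed within 1.5 times the reported count. Scaling to library totals, added after the data were seen, moved 8 of the other counts. Members lower in OBP-like against LMP-like cells came to 6 (reported 1), those higher and lower in OB1-like against LMP-like cells to 15 and 9 (26 and 1), those higher in OB2-like against OB1-like cells to 8 (5), those lower in Ocy-like against OB1-like cells to 13 (20), those higher and lower in MALP-like against LMP-like cells to 16 and 11 (10 and 18), and those lower in B-lineage-like against macrophage-like cells to 6 (3). For the genes named by the rule above, the same scaling turned the log2 difference of *Ddit3* in OBP-like against LMP-like cells to -0.19. It turned *Hspa5* and *Ddit3* in OB1-like against LMP-like cells to -0.33 and -0.10, and *Atf4* in MALP-like against LMP-like cells to 0.10. *Atf4* in B-lineage-like against macrophage-like cells turned to -0.71. Members outside that rule turned too, among them *Canx* (0.30 to -0.18) and *Pdia3* (0.28 to -0.20) in OB1-like against LMP-like cells. *Sel1l* in OBP-like against LMP-like cells went from 0.19 to -0.14. These last members were called on both scales. The stricter gate gave 2 members lower in OBP-like against LMP-like cells. Thinning cells to 4000 UMIs, which leaves fewer counts per pool and fewer genes tested, called 5664 genes in OB1-like against LMP-like cells (8632), 3316 in OB2-like against OB1-like (6226), 2369 in Ocy-like against OB1-like (4724) and 1709 in B-lineage-like against macrophage-like cells (4201), with 1 member lower in the last. Without the pool block (no paired fit) 2914 genes were called in Ocy-like against OB1-like cells, with 1 member higher and 12 lower; the pairing of classes comes from their shared pool, and dropping it ended the calls of 3 members in OBP-like and 2 in OB1-like against LMP-like cells, 2 in OB2-like and 14 in Ocy-like against OB1-like cells, 7 in MALP-like and 2 in macrophage-like against LMP-like cells and 0 in B-lineage-like against macrophage-like cells, and added none. Classes taken from clusters put *Ddit3* at 0.46 (adjusted p = 0.00679) in macrophage-like against LMP-like cells (reported -0.16). They held no OB1-like cluster, and a cluster of 6919 cells led by *Bglap*, *Bglap2*, *Mepe* and *Thbs4* took the name Ocy-like. The 3 comparisons with OB1-like cells were therefore not made with them, and the clusters did not bear out the split of OB1-like from Ocy-like cells. Of 809 recomputed log2 differences of named genes, 772 stayed on the same side of the threshold, 22 fell short of it and 9 newly passed it. A further 6 turned, with a call in the main or the alternative setting. Differences called in neither setting counted among the 772 even where their sign changed, as for *Hspa5* in OB2-like against OB1-like cells (-0.13, and 0.01 on library totals). Without pools 13 and 17, B-lineage-like against macrophage-like cells gave 27 members higher and 2 lower, with *Hspa5* at 1.27, and with immunoglobulin genes left out 27 and 2, with *Hspa5* at 1.30. Without pools 1 and 2, *Ddit3* in Ocy-like against OB1-like cells stood at 0.19 (edgeR adjusted p = 0.0541) and *Hspa5* in MALP-like against LMP-like cells at 0.14 (adjusted p = 0.109), while *Ddit3* in macrophage-like against LMP-like cells stood at -0.42 (adjusted p = 0.00448). Of 1287 recomputed levels, 1253 moved by less than 1 SD over pools, and 31 of the 34 others did so with classes from clusters. Of 93 same-cell ratios, 68 moved by less than 1 SD over pools with cells thinned to 2000 UMIs. Where no construction is named, the cause was not tested. No comparison had 5 or fewer pools, so single pools other than pool 13, whose omission changed none of these calls, were not left out in turn. Depth limits the members of low level, such as *Ern1* and *Eif2ak3*, most.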

Other observations

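Of the leukocyte classes of the gate that entered no comparison, the 3 with at least 4 pools are described here without a test. In osteoclast-like cells (10 pools) *Ddit3*, which encodes CHOP, was at 193.8 ± 47.5 CPM and ran from 123.6 to 265.9 CPM, whereas the macrophage-like cells of 16 pools ran from 46.5 to 91.3 CPM. *Asns* (84.6 ± 25.9 CPM) and *Eif2ak3* (18.3 ± 3.76 CPM) were also above their macrophage-like means of 46 and 10.7 CPM. *Chac1*, another gene of the ATF4 arm, was at 8.74 ± 6.91 CPM in osteoclast-like cells beside 12.2 ± 5.38 CPM in macrophage-like cells. *Atf4* was alike in the 2 classes, at 479.9 ± 67.7 and 454.3 ± 66.4 CPM.

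In granulocyte-like cells (12 pools) 11 of 12 chaperones had a lower mean than in macrophage-like cells, as did 64.8% of the 9992 genes with at least 5 CPM in either class, with *Hspa5* at 550.6 ± 149 CPM and *Calr* at 299.8 ± 111.7 CPM, beside 1262 ± 247.1 and 571.9 ± 83.6 CPM. Of the other members, 0 of 3 ER-resident or secreted, 3 of 4 ERAD, 3 of 4 sensor and 5 of 10 ATF4-arm genes had a lower mean. The ERAD gene *Herpud1* stood at 333.5 ± 46.6 CPM there, with a range of 236.8 to 412.9 CPM, beside 178.4 ± 53.9 CPM in macrophage-like cells. T-cell-like cells (4 pools) held *Ern1* at 36.8 ± 16.9 CPM, beside 17.2 ± 3.67 CPM in macrophage-like and 5.33 ± 1.05 CPM in LMP-like cells. *Col1a1*, a gene of the stromal cells, was at 2871, 5400 and 2893 CPM in osteoclast-like, granulocyte-like and T-cell-like cells, and the part of free or doublet RNA in these values was not tested. In granulocyte-like cells the median depth was 2792 UMIs per cell.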
